A study of Mus musculus with 106 samples.

Results

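The libraries described here are total RNA of the cerebrum from HD and control mice, taken before ribosome pulldown. Members were chosen by their labels: input preparation, cerebrum, and a Gad2, PV or vGluT2 Cre line. They make 18 of the 106 libraries, 9 control and 9 HD, with 3 mice of each genotype in each line. HD mice were heterozygous for the expanded huntingtin knock-in allele (Hdh Q7/Q200), and controls were Hdh Q7/Q7 littermates on a 129S4 background, all about 9 months old. Every mouse also carried a RiboTag allele (Rpl22-HA) and a Cre driver, so controls share both. Total RNA was taken from the supernatant of a homogenised hemisphere, without olfactory bulb and cerebellum, after centrifugation. It holds RNA of all cells, whichever neurons the Cre driver marks. Total RNA of an SST Cre line, 4 control and 3 HD mice, served as a check in mice outside the main test. In that line some controls have mouse names of a Z series, while the other controls and all HD mice have names of a BR series. The labels do not say what the series mean, and their part cannot be fully told apart from genotype there. The labels do not give sex.

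Huntington's disease is caused by an expanded CAG repeat in the huntingtin gene, and the spiny projection neurons (SPNs) of the striatum are its best known target. Direct pathway SPNs carry the dopamine receptor gene Drd1 and the opioid peptide precursor Pdyn. Indirect pathway SPNs carry Drd2, the adenosine receptor gene Adora2a and the enkephalin precursor Penk. Both classes share a signalling machinery built on cyclic AMP, including the phosphatase inhibitor Ppp1r1b and the phosphodiesterase Pde10a. A whole hemisphere dilutes these neurons among cortex, thalamus, hypothalamus, glia and vessels.

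Counts per library totalled 28504318 to 49987768 in controls and 21905221 to 52197488 in HD, with a median of 34818157 over the 18. In the SST line they ran from 24279938 to 42697273 in controls and from 33020896 to 62160033 in HD. Levels are given as CPM after trimmed-mean normalisation (TMM CPM), scaled over the total RNA libraries of the cerebrum. The vesicular glutamate transporter Slc17a7 had a median of 1583 TMM CPM in controls and 1388 in HD. It is no marker of the cerebrum alone, since its median was 878 in cerebellar total RNA and the ranges overlapped. Direct pathway SPN genes summed to 150 to 176 TMM CPM in controls and 114 to 166 in HD, against 4.22 to 21.5 in cerebellar total RNA. Gabra6, a receptor subunit of cerebellar granule cells, was under 1 CPM in 14 of the 18 libraries and reached 16.7, against a median of 440 in cerebellar total RNA. The hypothalamic peptide gene Pmch was present in every library, at 6.07 to 42.7 TMM CPM. The choroid plexus gene Ttr ranged from 578 to 1286 TMM CPM, and the haemoglobin gene Hbb-bs from 115 to 617. The summed level of olfactory bulb genes was highest in control PV replicate 3 (326 TMM CPM) and HD vGluT2 replicate 1 (302), the latter with Doc2g at 41.1 and Eomes at 10.7.

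The widest spread between libraries did not follow genotype. The leading principal component held 81.2% of the variance and ran from −41.9 in control PV replicate 3 to 37.3 in HD Gad2 replicate 1. Those libraries also lay at the ends of a length measure, the median log2 level of the 10% of genes with the longest exons minus that of the 10% with the shortest, each gene centred on its mean. This measure ran from −1.27 to 1.16 in controls (median 0.03) and from −1.27 to 1.27 in HD (median −0.06). It passed 0.9 in size in 5 libraries: control Gad2 replicate 1, control PV replicate 3, HD Gad2 replicate 1, HD PV replicate 1 and HD vGluT2 replicate 1. Mitochondrial transcripts took 1.92 to 7.53% of counts in controls and 2.36 to 10.1% in HD. The summed level of 4 Y-linked genes was 0.0753 CPM or less in 10 libraries and 13.1 or more in the other 8, of which 3 were control and 5 HD. Results are therefore also given with the length measure as a covariate and without the 5 libraries, alternatives chosen after seeing the data.

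Few genes passed the test in total RNA of the HD cerebrum, and most of them were lower. Calls given without a tool are those of edgeR. Of 14871 protein-coding genes tested, 21 passed an adjusted p of 0.05 and are called here (0.141%). Among them 15 fell in HD (0.101%) and 6 rose (0.0403%). The striatal sodium channel subunit Scn4b, the carbonic anhydrase Car2, the peroxidase Gpx6 and the mTOR inhibitor Ddit4l fell, and these 4 were called whichever library was left out; each of the other 17 lost its call without at least 1 library. The largest fall was that of the vasopressin precursor Avp, and the largest rise that of Tmc3, a channel-like membrane protein. All 21 had the same direction in each of the 3 lines. The 9 control and 9 HD libraries did not overlap for 11 genes (0.0740%), of which 9 were called and 7 of those were lower. The remaining 2, chosen after their values were seen, were Fads1 (log2 fold change −0.25, adjusted p = 0.0617) and Thsd1 (0.59, adjusted p = 0.0617). DESeq2 called 119 genes (0.800%), all 21 among them. The count moved most without HD PV replicate 2 (4 genes), control vGluT2 replicate 1 (5) and HD PV replicate 3 (6), and without HD Gad2 replicate 3 (43). It was 7 without control Gad2 replicate 3, control vGluT2 replicate 2 or 3, or HD vGluT2 replicate 1, 8 without HD vGluT2 replicate 3, and 9 without control PV replicate 3 or HD Gad2 replicate 1. It was 10 without HD vGluT2 replicate 2, 11 without control PV replicate 2, 12 without control Gad2 replicate 2 and 13 without HD Gad2 replicate 2. Without the 5 libraries far on the length measure, 5 of the 21 were called. With Y-linked genes present or not as a covariate, 14 of the 21 were called and 7 lost their call. With the replicate number as a block, 13 of the 21 were called and 8 lost their call.

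Scn4b (ENSMUSG00000046480.6, GRCm38.p6 chr9:45138395-45154152) encodes the β4 subunit of voltage-gated sodium channels and is abundant in SPNs. Its level was 282 to 377 TMM CPM in controls (median 324) and 142 to 211 in HD (median 190). Every HD library lay below every control library. On the log2 scale it changed by −0.84 (SE 0.0809, adjusted p = 0.000142), the smallest p of the comparison. In the Gad2 line the mean fell from 313 ± 28.3 to 197 ± 10.4 TMM CPM (SD, n = 3 each), in the PV line from 330 ± 18.1 to 167 ± 20.9, and in the vGluT2 line from 349 ± 40.6 to 188 ± 27.3. Lrrc10b, a leucine-rich repeat gene of the same list, had 29.5 to 55.1 TMM CPM in controls and 14.8 to 34.9 in HD. The groups overlapped at their edges, and all 9 HD libraries lay below the control median (log2 fold change −0.83, SE 0.137, adjusted p = 0.021). In bulk RNA, fewer cells of a type and less RNA per cell cannot be told apart.

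Genes of SPN signalling were lower as a group. Of 26 tested members of the list of shared SPN signalling genes, 24 had lower values in HD, 2 of them called (Scn4b and Lrrc10b), with a median log2 fold change of −0.37. Over all genes tested, 6800 of 14871 were lower and the median was 0.02. Summed over the list, levels were 3600 to 4751 TMM CPM in controls (median 4175) and 2816 to 3630 in HD (median 3056). Only the lowest control and the highest HD library crossed. Ppp1r1b, the most abundant member, had a median of 462 TMM CPM in controls and 290 in HD, and its fold change was −0.68 on the log2 scale (SE 0.192, adjusted p = 0.26). Pde10a was at −0.55 (SE 0.179, adjusted p = 0.393) and Arpp21, a cyclic AMP-regulated phosphoprotein, at −0.36 (SE 0.0856, adjusted p = 0.143). The cannabinoid receptor Cnr1 was not lower, at 0.21 (SE 0.388, adjusted p = 0.863).

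Indirect pathway genes stood lower than direct pathway genes, a difference that was not tested. All 4 indirect pathway genes tested were lower, with a median of −0.71, none called by edgeR and 3 by DESeq2. Penk had 218 to 554 TMM CPM in controls (median 312) and 126 to 290 in HD (median 168). All 9 HD libraries were below the control median, and the log2 fold change of −0.84 (SE 0.164) just missed the threshold (adjusted p = 0.051). Adora2a had 45.6 to 121 TMM CPM in controls and 25.7 to 61.2 in HD, at −0.87 (SE 0.172, adjusted p = 0.052). Drd2 was at −0.54 (SE 0.132, adjusted p = 0.163). Of 5 direct pathway genes, 3 were lower and none called, with a median of −0.22. Pdyn was at −0.38 (SE 0.125), the muscarinic receptor Chrm4 at −0.41 (SE 0.149) and Drd1 at −0.22 (SE 0.219), with adjusted p of 0.419, 0.476 and 0.841. SPN transcription factors did not share the direction. Of 12 tested, 2 were lower and none called, with a median of 0.11. The retinoid receptor Rxrg was at −0.39 (adjusted p = 0.687) and Zfp503 at 0.17 (adjusted p = 0.836).

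**Figure D1:**
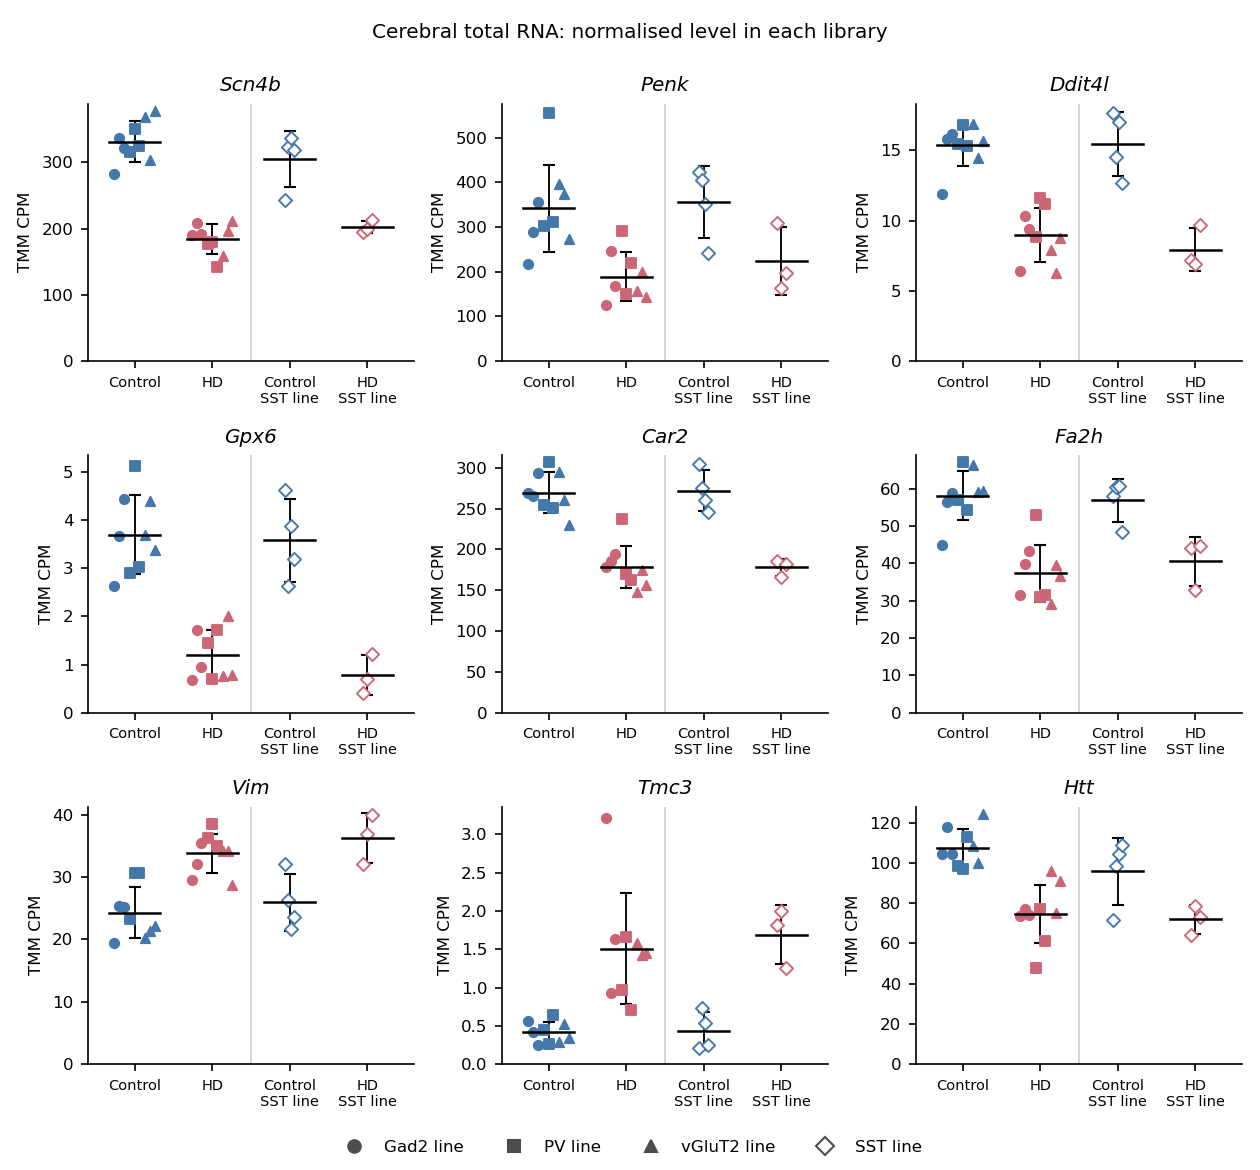
TMM CPM of 9 genes in each total RNA library of the cerebrum (filled points, shaped by Cre line; open diamonds, SST line), with black lines for the mean and bars for the SD. Filled control and HD points do not overlap for Scn4b, Ddit4l, Gpx6, Tmc3 and Htt. With the open diamonds counted, Tmc3 and Htt overlap.

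Other called genes that fell had lower levels than Scn4b. Gpx6, a glutathione peroxidase, had 2.64 to 5.12 TMM CPM in controls (median 3.67) and 0.668 to 2.01 in HD (median 0.948), with no overlap (log2 fold change −1.62, SE 0.24, adjusted p = 0.0185). Ddit4l, which restrains mTOR signalling, had 11.9 to 16.8 in controls and 6.24 to 11.6 in HD, again with no overlap (−0.78, SE 0.12, adjusted p = 0.0199). Slc4a11, a membrane transporter, fell by 1.57 (SE 0.276, adjusted p = 0.0292), from a median of 2.58 to 0.591 TMM CPM. Spag5, a mitotic spindle protein, fell by 0.71 (adjusted p = 0.02). A further 4 called genes lie outside the rule for naming and were chosen after their values were seen. Gpr83, a G protein-coupled receptor, had 26.2 to 31.4 TMM CPM in controls and 17.1 to 22.8 in HD. Lrig1, which restrains growth factor receptors, had 55.98 to 79.8 and 38.7 to 55.7. Arsg, a lysosomal sulfatase, had 39.1 to 47.8 and 27.5 to 37.5. None of these 3 overlapped between groups, and their log2 fold changes were −0.50, −0.56 and −0.39. The potassium channel Kcnk13 fell by 0.54 (adjusted p = 0.021).

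The genes that rose were mostly scarce. Tmc3 had 0.251 to 0.636 TMM CPM in controls and 0.704 to 3.21 in HD, with no overlap (log2 fold change 1.83, SE 0.286, adjusted p = 0.0199). Chdh, the choline dehydrogenase, had 3.53 to 6.19 in controls and 6.67 to 10.8 in HD, also without overlap (0.73, SE 0.134, adjusted p = 0.0357). The neuropeptide S receptor Npsr1 rose by 1.35 (SE 0.246), the zinc transporter Slc30a2 by 1.08 (SE 0.186) and the BAFF receptor gene Tnfrsf13c by 1.09 (SE 0.197), with adjusted p of 0.0357, 0.0256 and 0.0346. All 9 HD libraries lay above the control median for each of these 5 genes. Vim, the intermediate filament vimentin, was the most abundant of the 6. It had 19.5 to 30.7 TMM CPM in controls (median 23.3) and 28.7 to 38.5 in HD (median 34.2), a change of 0.49 on the log2 scale (SE 0.0832, adjusted p = 0.0217).

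Vim was the only member called among genes of reactive astrocytes. Of the 9 tested, 7 were higher in HD, with a median of 0.06. The astrocyte filament Gfap, the most abundant of them, was at −0.32 (SE 0.107, adjusted p = 0.421), with a median of 223 TMM CPM in controls and 174 in HD. Of 15 astrocyte genes, 11 were lower, with a median of −0.16, none called by edgeR and 3 by DESeq2. Agt, the angiotensinogen precursor, was at −0.76 (SE 0.164, adjusted p = 0.0881), with all 9 HD libraries below the control median. The GABA transporter Slc6a11 was at −0.41 (SE 0.0877, adjusted p = 0.0843). Among 16 microglia genes, 9 were higher and none called, with a median of 0.05. The lysosomal protease Ctss, at 0.34 (SE 0.0952, adjusted p = 0.255), and the lectin Siglech, at 0.18 (adjusted p = 0.833), had the lowest adjusted p of the list. Of 14 endothelial and mural genes, 12 were higher and none called, with a median of 0.10. Pecam1 was at 0.20 and Cdh5 at 0.17, with adjusted p of 0.841 for both.

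Myelin genes leaned lower. Of 17 oligodendrocyte genes, 13 were lower and 1 was called, with a median of −0.18. That gene was Fa2h, the hydroxylase that shapes myelin sphingolipids, which had 44.8 to 67.2 TMM CPM in controls and 29.1 to 53.1 in HD (log2 fold change −0.63, SE 0.113, adjusted p = 0.031). Cldn11, the tight junction protein of myelin, just missed the threshold at −0.43 (SE 0.0844, adjusted p = 0.052). Summed levels of the list were 6340 to 7878 TMM CPM in controls and 4742 to 6956 in HD, so the groups overlapped. Car2, a carbonic anhydrase known from oligodendrocytes though on no list here, fell from a median of 266 to 174 TMM CPM (log2 fold change −0.59, SE 0.0764, adjusted p = 0.00462). Its groups overlapped, at 230 to 308 in controls and 147 to 237 in HD. Oligodendrocyte precursor genes did not lean this way. Of 10, 3 were lower and none called, with a median of 0.08, and Bcas1 was at 0.29 and Cspg4 at −0.17 (adjusted p = 0.533 and 0.841). Of 24 cholesterol synthesis genes, 20 were lower and none called, with a median of −0.11. The reductase Dhcr7 was at −0.31 (adjusted p = 0.476).

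Peptide genes were lower in most cases, and vasopressin stood apart. Of 25 neuropeptide genes, 22 were lower and 1 was called, with a median of −0.26. Avp, the vasopressin precursor of hypothalamic neurons, had 7.49 to 31.8 TMM CPM in controls (median 17.1) and 0.735 to 17.4 in HD (median 3.57). The groups overlapped, with HD Gad2 replicates 2 and 3 at 9.48 and 17.4, and 8 of 9 HD libraries lay below the control median. On the log2 scale it changed by −2.22 (SE 0.425, adjusted p = 0.0495). All 10 tested genes of the hypothalamus and pituitary list were lower, with Avp the 1 called and a median of −0.27. Their summed level was 50.7 to 150 TMM CPM in controls and 21.1 to 118 in HD. Pomc was at −0.70 (SE 0.456, adjusted p = 0.841). Whether the share of hypothalamus differed between hemispheres was not tested.

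**Figure D2:**
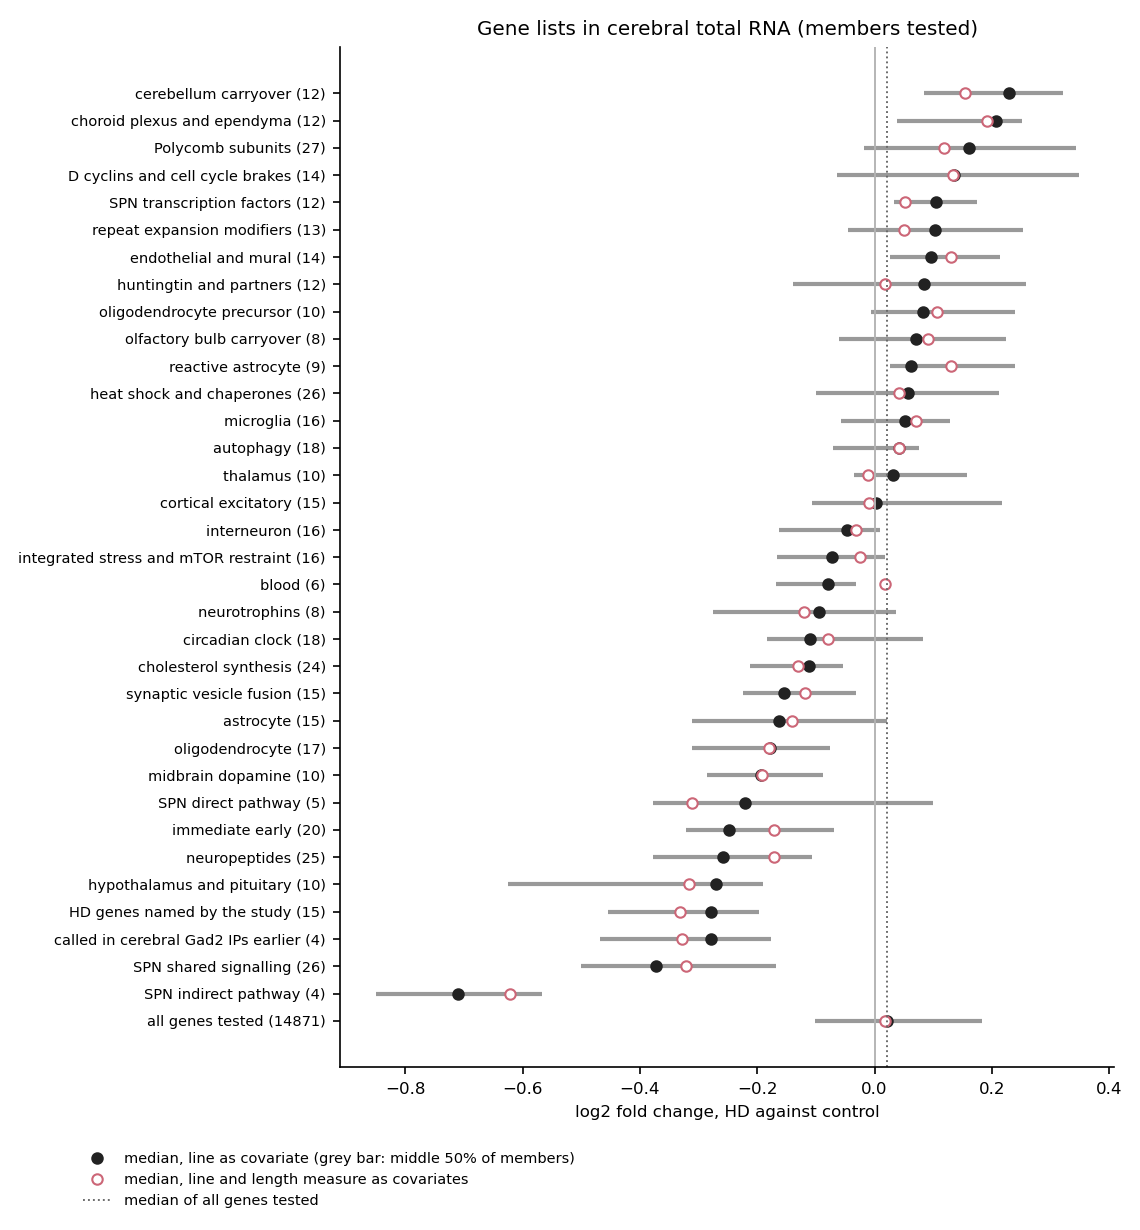
Median log2 fold change, HD against control, of each gene list in cerebral total RNA (black), with bars for the middle 50% of members, and the median with the length measure as a covariate (open). The 4 indirect pathway genes lie lowest at −0.71, and all genes tested lie at 0.02.

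Huntingtin RNA itself was lower. Htt (ENSMUSG00000029104.15, chr5:34761740-34912534) had 96.9 to 124 TMM CPM in controls (median 104) and 47.6 to 95.8 in HD (median 74.8). Every HD library lay below every control library, by a narrow gap. The log2 fold change was −0.53 (SE 0.1, adjusted p = 0.0443), with −0.54 in the Gad2 line, −0.73 in the PV line and −0.35 in the vGluT2 line. Of 12 tested genes of huntingtin and its partners, 5 were lower, Htt the 1 called, with a median of 0.08. Within 10 Mb either side of Htt, 148 genes were tested and none was called by edgeR, 8 were called with the length measure (against 2.82% of all genes), 77 were lower, and the median was −0.01. Of 13 modifiers of repeat expansion, 6 were lower and none called, with a median of 0.10. The mismatch repair gene Pms2 was at 0.25 and the polymerase Polb at −0.24 (adjusted p = 0.703 and 0.812).

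Genes that the study itself names in HD, in its text or figures, mostly leaned lower. Of 15, 14 were lower and none called by edgeR, with a median of −0.28. DESeq2 called 4. The study picked some of them on mice used here, so their direction is not independent evidence. The calcium-binding regulator Pcp4 was at −0.21, Vip at −0.18, Grm3 at −0.26, Chrna6 at −0.29, Htr4 at −0.28, Arpp19 at −0.12 and Chn1 at −0.03, each with an adjusted p over 0.05. Gsg1l, an AMPA receptor partner, was at −0.32 (SE 0.0681, adjusted p = 0.0719), with 8 of 9 HD libraries below the control median. Their summed level was 2361 to 2778 TMM CPM in controls and 1684 to 2203 in HD, with no overlap. All 4 genes called earlier in ribosome-bound RNA of Gad2 neurons were lower, Ddit4l the 1 called, with a median of −0.28. Those earlier calls came from Gad2 IPs of these data, which share mice with total RNA, so this direction is not independent evidence either. Rgs4, a regulator of G protein signalling, was at −0.19 (SE 0.103, adjusted p = 0.8285).

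Other neuronal lists held few differences. Of 15 cortical excitatory genes, 7 were lower, with a median of 0.00, none called by edgeR and 1 by DESeq2. Lamp5 was at −0.35 (adjusted p = 0.196) and Cux2 at −0.16 (adjusted p = 0.773). Of 16 interneuron genes, 12 were lower and none called, with a median of −0.05. Npy was at −0.28 and Dlx1 at 0.24, both with an adjusted p of 0.841. Of 10 thalamus genes, 5 were lower, with a median of 0.03, none called by edgeR and 1 by DESeq2. The kinase Prkcd was at −0.50 (SE 0.132, adjusted p = 0.225), with all 9 HD libraries below the control median, and Lef1 was at 0.15 (adjusted p = 0.841). Of 10 midbrain dopamine genes, 9 were lower and none called, with a median of −0.19, and the dopamine transporter Slc6a3 was at −0.34 (SE 0.106, adjusted p = 0.349). Of 15 synaptic vesicle fusion genes, 11 were lower, with a median of −0.16, none called by edgeR and 1 by DESeq2. Otof was at −0.56 (adjusted p = 0.225) and Syt2 at −0.33 (adjusted p = 0.419).

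Activity and growth factor genes leaned lower without calls by edgeR. Of 20 immediate early genes, 16 were lower and none called, with a median of −0.25. Jun was at −0.19 and Fosl2 at −0.25 (adjusted p = 0.679 and 0.789). Of 8 neurotrophin genes, 5 were lower and none called, with a median of −0.10. The receptor Ngfr was at −0.50 (adjusted p = 0.344). Of 18 clock genes, 12 were lower, with a median of −0.11, none called by edgeR and 1 by DESeq2. Per3 was at −0.45 (SE 0.121, adjusted p = 0.225) and Npas2 at −0.18 (adjusted p = 0.691).

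Stress, chromatin and cell cycle genes were at or above the median of all genes in most lists. Of 16 genes of the integrated stress response and mTOR restraint, 11 were lower, Ddit4l the 1 called, with a median of −0.07. Psat1, a serine synthesis enzyme, was at 0.22 (SE 0.0658, adjusted p = 0.311), with all 9 HD libraries above the control median. Of 26 heat shock and chaperone genes, 16 were higher and none called, with a median of 0.06, and Hspa1b and Dnajb5 were at −0.24 and −0.22 (adjusted p = 0.753 and 0.841). Of 18 autophagy genes, 11 were higher and none called, with a median of 0.04, and Atg16l1 and Ulk1 were at −0.17 and −0.13 (adjusted p = 0.841 for both). Polycomb proteins keep genes silent through histone marks. Of 27 subunits, 19 were higher, with a median of 0.16, none called by edgeR and 1 by DESeq2. Cbx8 was at 0.32 (SE 0.156, adjusted p = 0.775). Of 14 genes of D cyclins and cell cycle brakes, 8 were higher, with a median of 0.14, none called by edgeR and 1 by DESeq2. The brake Cdkn1c was at 0.59 (SE 0.142, adjusted p = 0.163) and Plk5 at −0.67 (SE 0.194, adjusted p = 0.284).

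Lists of tissue that can be carried over did not separate the groups, but their sums do not measure carryover alone. Of 12 cerebellar genes, 9 were higher in HD and none called, with a median of 0.23, and their sums were 166 to 415 TMM CPM in controls and 155 to 463 in HD. Neurod1 and Calb1 were at 0.43 and 0.24 (adjusted p = 0.841 for both). Calb1 was the most abundant gene of this list in the cerebrum, with a median of 90.7 TMM CPM in controls and 106 in HD. Gabra6, by contrast, was under 1 CPM in 14 of the 18 libraries. Of 8 olfactory bulb genes, 5 were higher and none called, with a median of 0.07. Calb2, also on the thalamus list, was the most abundant of them, with a median of 135 TMM CPM in controls and 131 in HD. The olfactory bulb list summed to 347 to 1389 TMM CPM in cerebellar total RNA, so it does not mark the bulb alone. Eomes was at 0.59 (SE 0.72) and Th at −0.27 (SE 0.21), with an adjusted p of 0.841 for both. The higher value of Eomes rests on HD vGluT2 replicate 1, at 10.7 TMM CPM against 0.929 in the next of the 9 HD libraries. Its mean was lower in HD in the Gad2 line (0.846 against 1.07) and in the PV line (0.573 against 0.979). Of 12 choroid plexus and ependyma genes, 9 were higher and none called, with a median of 0.21, led by Otx2 at 0.29 and Kcnj13 at 0.35 (adjusted p = 0.451 and 0.6248). Of 6 blood genes, 5 were lower and none called, with a median of −0.08. Hbb-bt was at −0.32 (adjusted p = 0.841).

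With the length measure as a covariate, many more genes of the same groups passed the test. In all, 419 were called (2.82%), of which 301 fell (2.02%) and 118 rose (0.793%), all 21 among them. In that fit 15 of the 26 shared SPN signalling genes fell, as did all 4 indirect pathway genes, 2 of 5 direct pathway genes and 1 of 12 SPN transcription factors. Penk was at −0.75, Adora2a at −0.77, Pde10a at −0.66, Ppp1r1b at −0.58 and Drd2 at −0.47, each called there and not by edgeR without the covariate. DESeq2 called 3 of the 4 indirect pathway genes without it. Among glia, 6 of 17 oligodendrocyte genes and 5 of 15 astrocyte genes fell, with Agt at −0.70. Among cholesterol synthesis genes, 4 of 24 fell. Cdkn1c rose by 0.64, and the Polycomb subunit Cbx8 rose by 0.39. The medians of the cortical excitatory, thalamus and blood lists, all near 0, changed sign with the covariate, so the direction of these lists depends on the fit.

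The called genes had the same directions in the SST line, in other mice. All 21 differed in the same direction there, and for 15 of them the 4 control and 3 HD libraries did not overlap. Over all 14732 genes tested in both, 6235 (42.3%) had the same direction, and 604 did not overlap. Of the 418 genes called with the length measure and tested in the SST line, 349 (83.5%) had the same direction. Scn4b was at 243 to 337 TMM CPM in SST controls and 194 to 212 in SST HD mice, or −0.60 on the log2 scale (SE 0.156). Gpx6 was at −2.24, Slc4a11 at −2.15, Car2 at −0.61, Tmc3 at 2.02 and Vim at 0.48. Avp was at −0.70 with groups that overlapped, at 6.06 to 24.9 and 3.13 to 17.3 TMM CPM. Within the lists, 20 of the 26 shared SPN signalling genes, 4 of 4 indirect pathway genes and 14 of 15 astrocyte genes were lower. Other lists differed: SPN transcription factors were lower in 11 of 12 there, against 2 of 12 in the main test, and thalamus genes in 10 of 10, against 5 of 10. Peptide genes leaned less: 16 of 25 neuropeptide genes were lower there, against 22 of 25, and 6 of the hypothalamus and pituitary genes were lower and 3 higher, against 10 of 10, with a median of −0.09 for both lists. In SST control replicate 2 the blood list summed to 9272 TMM CPM, against 691 to 1419 in the other SST controls. The median of that list was −2.26 in the SST line. The SST line alone had 0 genes called by edgeR and 381 at an unadjusted p under 0.05. Added to the fit, it brought the count to 96 genes (0.645%).

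**Figure D3:**
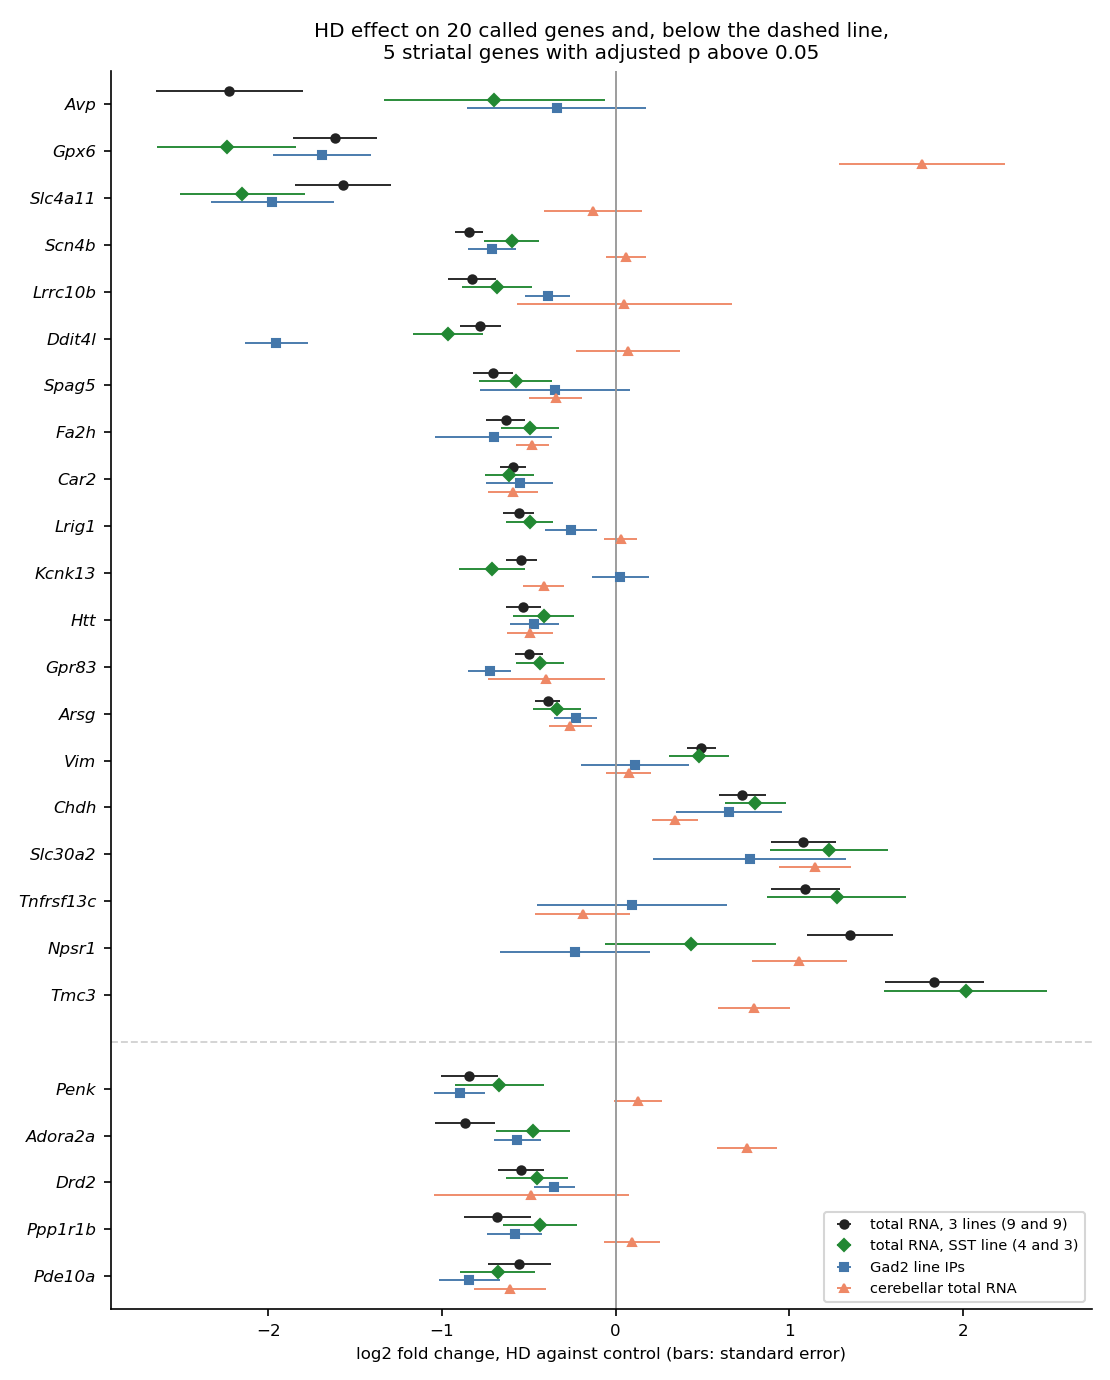
Log2 fold change, HD against control, with standard errors, of 20 called genes and 5 striatal genes with adjusted p above 0.05, in total RNA of the 3 lines and of the SST line, in Gad2 line IPs and in cerebellar total RNA. All 20 lie on the same side of 0 in the 3 lines and in the SST line.

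Cre line should not matter for RNA of all cells, and the next test asked whether the HD effect differed between lines. It found 0 of 14871 genes with edgeR (0%), with 93 at an unadjusted p under 0.05, and 0 with DESeq2, with 163. These counts do not show that the lines are alike. Fitted alone, each line of 3 and 3 mice had 0 called with edgeR, with 86 genes at an unadjusted p under 0.05 in the Gad2 line, 218 in the PV line and 1055 in the vGluT2 line. Avp ranged most among the called genes, at −1.06 in the Gad2 line, −2.89 in the PV line and −2.76 in the vGluT2 line (adjusted p over 0.05 for the difference). Penk was at −0.67, −0.83 and −1.06 in the same order.

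Ribosome-bound RNA of Gad2 neurons, which include SPNs and interneurons, showed a larger fall of Ddit4l than total RNA did when all libraries were fitted together. The fall was 1.95 in 12 IP libraries and 0.78 in total RNA on the log2 scale, a difference of −1.17 (SE 0.197, adjusted p = 0.0369). It was the only gene called among 14779 in the test of that difference (0.00677%), with 1103 at an unadjusted p under 0.05. There were 6 mice that gave both preparations, and the mouse is not a term of the fit. With those mice only and the mouse as a block, Ddit4l lost its call: edgeR called 0 genes, with 53 at an unadjusted p under 0.05. With the length measure as a covariate the difference was −1.22. DESeq2 also called 1 gene. The call was lost when any of 26 of the 30 libraries was left out. It was kept only without HD Gad2 total RNA replicate 1, HD vGluT2 total RNA replicate 2, control Gad2 IP replicate 5 or HD Gad2 IP replicate 4. Other genes called in total RNA were lower in Gad2 IPs too, which share mice with it: Gpx6 was at −1.69 in Gad2 IPs, Scn4b at −0.71, Slc4a11 at −1.98 and Gpr83 at −0.73. Arpp21 and Arpp19 were at −0.78 and −1.02 in Gad2 IPs, against −0.36 and −0.12 in total RNA, and neither difference was called. In PV line IPs, which also share mice with total RNA, Fa2h was at −0.99, Agt at −1.13 and Kcnk13 at −0.92 (adjusted p = 0.043 each). Fa2h and Agt are on the oligodendrocyte and astrocyte lists. Whether their values in these IPs come from background RNA of other cells was not tested. Htt was lower in each preparation, at −0.47 in Gad2, −0.42 in PV, −0.63 in vGluT2 and −0.57 in SST line IPs.

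Against the cerebellum, the test asked which HD effects differ by region, with 14 cerebellar total RNA libraries of the Gad2 and vGluT2 lines. There were 6 mice that gave both regions, and the mouse is not a term of this fit. Of 14860 genes, 97 were called (0.653%), 21 with a higher and 76 with a lower effect in the cerebrum. The cerebellar libraries fitted alone had 3544 of 14477 genes called, so a call there and not in the cerebrum is common. Ccnd1, Fam163b, Rims3 and Tspan18 were among such genes. Ccnd1, a D cyclin, was at 1.70 (SE 0.0983) in the cerebellum and 0.07 (SE 0.0934) in the cerebrum, a difference of −1.62 (SE 0.129, adjusted p = 6.73e-09). Fam163b was at 1.42 and −0.11, and the vesicle release protein Rims3 at 0.79 and −0.17, with differences of −1.52 and −0.94 (adjusted p = 8.48e-06 and 0.000111). Tspan18 was at −0.91 and 0.11, a difference of 1.03 (adjusted p = 0.000251). Among striatal genes, the effect on Scn4b was lower in the cerebrum by −0.89 (adjusted p = 0.000693) and that on Adora2a by −1.61 (adjusted p = 0.000558). The striatal lists went both ways. The median difference was −0.52 for indirect pathway genes (2 called lower) and −0.04 for shared SPN signalling genes (5 of 26 called lower). It was 0.53 for direct pathway genes and 0.38 for SPN transcription factors, with 0 called in either. The cerebellar medians of these lists were −0.87 and −0.38. Direct pathway genes summed to only 4.22 to 21.5 TMM CPM in the cerebellum, so their difference rests on scarce RNA there. Transcription factors summed to 57.2 to 162 in the cerebellum, against 223 to 383 in cerebral controls. Gpx6 differed by −3.38 (adjusted p = 0.000693), with 1.76 in the cerebellum. Htt did not pass this test, at −0.49 (SE 0.132) in the cerebellum and a difference of −0.02 (SE 0.156, adjusted p = 0.925).

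The number of regional differences rests on single libraries and on the choice of fit. It was 31 with the replicate number as a block and 30 with only the Gad2 and vGluT2 lines in the cerebrum. In the cerebellum the measure ran from 0.29 to 0.72 in 4 vGluT2 line controls and from −0.98 to −0.38 in 4 vGluT2 line HD mice, so these groups do not overlap, and its part cannot be told apart from genotype in that line. With the measure as a covariate 105 genes were called (0.707%), 66 of them shared with the 97. DESeq2 called 2438. Leaving out a cerebral library gave 4788 genes without control Gad2 replicate 1, 1645 without control PV replicate 2, 2939 without HD Gad2 replicate 3 and 3261 without HD PV replicate 1. It gave 64 and 48 without control Gad2 replicates 2 and 3, 62 without control vGluT2 replicate 2, 61 without HD Gad2 replicate 1 and 45 without HD vGluT2 replicate 1. Leaving out a cerebellar library gave 5529 without HD Gad2 replicate 3, 2204 without control Gad2 replicate 3 and 193 without control Gad2 replicate 1. It gave 56 without HD Gad2 replicate 2, and 38, 33, 59 and 42 without control vGluT2 replicates 1, 2, 3 and 4.

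Promoter sequence was read for the called genes because 15 of them fell together. RefSeq promoters were matched for 11 of the 15 that fell and for all 6 that rose, and the 250 bases before each start were searched on both strands. The cyclic AMP response element TGACGTCA lay in 1 of the 11, in 0 of the 6, in 2.65% of promoters of tested genes and in 1.62% of all 27025. Its core TGACG, which lies inside it, was in 4 of 11 (36.4%), in 1 of 6 (16.7%), in 25.8% of promoters of tested genes and in 17.9% of all. Among the 20 matched promoters of shared SPN signalling genes it was in 0. The GC box GGGCGG was in 5 of the 11 (45.5%), against 32.9% of all promoters and 58.1% of those of tested genes. Htt and Gpr83 are shown as falling genes that hold the core, with capitals for TGACG on either strand. The windows are chr5:34761490-34761739 and chr9:14859960-14860209 of GRCm38.p6, both on the plus strand, from RefSeq. A match is a description of the letters, not of binding.
Htt: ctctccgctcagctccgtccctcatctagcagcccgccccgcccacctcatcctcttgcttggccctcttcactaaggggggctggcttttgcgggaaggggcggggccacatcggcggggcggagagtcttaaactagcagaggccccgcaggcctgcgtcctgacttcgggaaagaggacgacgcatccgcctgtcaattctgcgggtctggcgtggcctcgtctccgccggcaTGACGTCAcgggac
Gpr83: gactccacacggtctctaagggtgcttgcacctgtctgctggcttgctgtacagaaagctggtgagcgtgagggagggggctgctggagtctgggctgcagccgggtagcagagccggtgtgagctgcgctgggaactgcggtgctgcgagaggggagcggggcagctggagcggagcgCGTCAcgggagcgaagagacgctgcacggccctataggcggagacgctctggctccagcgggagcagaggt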

How the data were processed

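Estimated counts per gene from Salmon, deposited by the authors after STAR alignment to GRCm38.p6 through nf-core/rnaseq, were used without normalisation by the authors (expected counts, 8.57% of values not whole). The table holds 55493 entries, 92 of them spike-ins, which were left out of library sizes. Counts were rounded. Libraries were grouped by their labels. Members and gene lists were chosen with earlier results of these data known.

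Protein-coding genes (GENCODE M21) with a mean count over 10 were tested with edgeR 4.0.16 in R 4.3.3 (quasi-likelihood F test, TMM normalisation, Benjamini-Hochberg) and called at an adjusted p of 0.05 or less. The model held genotype and Cre line. The standard error is the size of the log2 fold change over the square root of F. Differences of the HD effect between lines, between Gad2 IPs and total RNA, and between regions were tested as interaction terms. Levels are TMM CPM over 18 libraries and 7 of the SST line. The tests were also tested on simulated data. The lowest depth was 21905221 counts. Summed over genes, counting error was small beside the spread between libraries: over 18 replicate pairs, chi-square divided by its degrees of freedom was at least 43.2. Abundant genes weigh most in that sum, so it does not cover scarce genes such as Tmc3 or Tnfrsf13c.

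Genes were named by a rule: Htt, the 10 called genes with the largest rise and the 10 with the largest fall, the genes the study names in HD and those called earlier in Gad2 IPs, of each other list the 2 with the lowest p or all called, and of each difference test the 5 called with the lowest p. Some genes that the rule names are not reported here. The 34 lists are described by counts and medians, without a test. Alternatives were DESeq2 1.42.0, its size factors, no filter on low counts, filterByExpr, genes of every type, Xist as a covariate, blocks by replicate number, no line covariate, single lines, the SST line added, and leaving out each library. Alternatives with the length measure, with Y-linked genes and without 5 libraries were chosen after seeing the data. Principal components used the 500 most variable genes. Promoters were the 250 bases before RefSeq starts.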

Additional observations from a re-analysis of the deposited data

Results flagged for a closer look

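In each group of 9 libraries, the gap between the highest or lowest value and its neighbour was compared with the range. Over 256 groups of gene values and list sums, 26 had a gap beyond Dixon's critical value, where chance gives about 1 in 20. Of the 26, 17 lay in Gad2 replicate 1, PV replicate 1 or PV replicate 3, and the cause was not tested.

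Among genes in TMM CPM, HD Gad2 replicate 1 was highest for Tmc3 (3.21) and Htr4 (3.39). Control Gad2 replicate 1 was highest for Npsr1 (2.43) and lowest for Ddit4l (11.9) and Cbx8 (6.63). HD PV replicate 1 was highest for Zfp503 (18.6), Lamp5 (196) and Npy (92.0), and HD PV replicate 2 for Kcnj13 (5.56). Control PV replicate 1 was highest for Kcnj13 (4.09), and control PV replicate 3 for Slc6a3 (33.7), Ngfr (19.2) and Th (46.1). HD vGluT2 replicate 1 was highest for Dlx1 (39.8) and Eomes (10.7), and control vGluT2 replicate 1 lowest for Chrna6 (2.12). Control Gad2 replicate 2 was highest for Neurod1 (18.9) and control Gad2 replicate 3 for Bcas1 (151).

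Among list sums in TMM CPM, HD PV replicate 1 was highest for D cyclins and cell cycle brakes (440) and for integrated stress and mTOR restraint (1110). Control Gad2 replicate 1 was highest for huntingtin and its partners (1867) and for repeat expansion modifiers (203). Control Gad2 replicate 2 was highest for cerebellar genes (415) and immediate early genes (1126), HD Gad2 replicate 3 for immediate early genes (962), and control PV replicate 3 for olfactory bulb genes (326).

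A test of the difference itself called these genes, in fits where the mouse is not a term although some mice gave libraries to both groups. Between Gad2 IPs and total RNA 1 gene was called, Ddit4l, at −1.17. That call was lost with the mouse as a block in the 6 mice that gave both, and when any of 26 of the 30 libraries was left out, so a difference is not claimed for it. Between cerebrum and cerebellum 97 were called, among them Ccnd1 at −1.62, Fam163b at −1.52, Rims3 at −0.94 and Tspan18 at 1.03.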

How the results depend on the processing

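The count of genes in the main comparison, 21, became 119 with DESeq2, 419 with the length measure, 5 without the 5 libraries far on it and 96 with the SST line added, or 544 with both that line and the length measure. It was 0 with edgeR in the Gad2, PV, vGluT2 or SST line alone (86, 218, 1055 and 381 genes at an unadjusted p under 0.05), and 0 in the SST line with the length measure (720), where fewer libraries were used. Leaving out each library gave 4 to 43. The replicate number as a block gave 19, with 13 of the 21 among them and 8 lost. Y-linked genes as a covariate gave 14, with 7 of the 21 lost. The difference between lines was 0 with edgeR under all alternatives run and 0 with DESeq2 (93 and 163 genes at an unadjusted p under 0.05).

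The single gene of the Gad2 IP difference was lost, a count of 0, with size factors, no filter, filterByExpr, all gene types, Xist, without the 5 libraries, with the Gad2 line total RNA only, and with mice that gave both as blocks. Leaving out each library gave 0 to 1. The 97 genes of the regional difference became 2438 with DESeq2, 31 with the replicate block and 30 with the Gad2 and vGluT2 lines only. Leaving out each library gave 33 to 5529. The cause was not tested.

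Over genes, deviations of same-numbered control and HD libraries correlated from −0.67 to 0.96 over 9 pairs, 6 of them above 0.1. In the Gad2 line they ran from 0.57 to 0.96. Whether the numbers mark pairs cannot be told from these values. Of 3384 values of 94 named genes under alternatives, 333 were no longer past the threshold and 109 came past it. No value called with or without the alternative changed sign. Among uncalled values, 57 moved by more than the spread between replicates, and 55, of 26 genes, changed sign, 32 of these in the SST line alone.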

Other observations

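Some genes outside the naming rule and the lists were called with the length measure and were chosen after their values were seen. Lower in HD were Klk6, a serine protease, at −0.91, Hapln2, a link protein of nodes, at −0.56, Padi2, a deiminase, at −0.37, and Tspan2, a tetraspanin, at −0.41. Without the covariate Hapln2, Padi2 and Tspan2 were at −0.62, −0.42 and −0.25, and none of the 4 was called (Klk6, adjusted p = 0.051). Higher were Apod, a lipid carrier, at 0.56, Smoc1, a secreted matrix protein, at 0.49, Cd82, a tetraspanin, at 0.35, and Acy3, an aminoacylase, at 0.69. Without the covariate they were at 0.50, 0.46, 0.30 and 0.61. In the SST line Klk6 was at −0.69, Hapln2 at −0.48, Padi2 at −0.47, Tspan2 at −0.74, Apod at 0.33, Smoc1 at 0.54, Cd82 at 0.32 and Acy3 at 0.84.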
